A study of Mus musculus with 18 samples.

Results

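Subunit genes of 2 enzyme complexes of the endoplasmic reticulum membrane, 10 in all, were followed in mouse testis: the signal peptidase genes Sec11a, Sec11c, Spcs1, Spcs2 and Spcs3, and the oligosaccharyltransferase genes Stt3a, Stt3b, Rpn1, Dad1 and Ost4. They are the 10 rows bearing these symbols among the 20985 rows of the expression table. The set was chosen by name, but with the measured difference of Spcs1 between AOS-treated and control testis already known, so values of that contrast are given as a description and support nothing. Whole testis of ICR mice aged 10 weeks was sequenced in 18 libraries, 3 in each of 6 groups. The groups were control, AOS at 10 mg/kg, a high-fat diet (HFD), this diet plus the same AOS dose (HFD-AOS), the diet with FMT labelled AOS 10 mg/kg (HFD-AOSFMT) and the diet with FMT labelled control (HFD-conFMT). Neither AOS nor FMT is expanded in the labels, which also name no FMT donors and no duration of the diet. The labels name no separate animal for each of the 3 libraries of a group. The p-values therefore measure only the spread between these samples, which may be technical. The study was designed to ask what FMT does in a testis affected by the diet.

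Proteins bound for secretion, for membranes or for the acrosome of sperm enter the endoplasmic reticulum through a channel, the translocon. Signal peptidase cuts the signal peptide from the entering chain. SEC11A and SEC11C are its alternative catalytic subunits, SPCS3 is an essential partner, and SPCS1 and SPCS2 are accessory subunits. Oligosaccharyltransferase moves a preassembled glycan from the lipid dolichol to asparagine residues of the chain. Its catalytic subunit is either STT3A, which sits at the translocon and acts on chains as they enter, or STT3B, which can act later and works with the oxidoreductases TUSC3 or MAGT1. RPN1, DAD1 and OST4 belong to both forms of the enzyme. In the testis, N-glycosylation and its folding checkpoints serve proteins of the sperm surface and the acrosome.

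Values were read as FPKM, reads scaled for gene length and library depth, though the deposited table names no unit. Levels of different genes can be compared only so far as this reading and the unstated gene lengths hold. The 18 libraries summed to between 588081 and 637005 FPKM, and between 12996 and 13221 genes reached 1 FPKM. Germ cell markers were abundant: 6 genes of elongating spermatids summed to between 39801 FPKM in HFD replicate 2 and 59687 FPKM in HFD-AOS replicate 1. Transcripts of the epididymis stood out in control replicate 3 and HFD-conFMT replicate 2, where 7 epididymal genes summed to 483 and 445 FPKM against 241 to 347 FPKM in the other 16 libraries. Of these 7 genes, Lcn8 was at 0 in every library. Cst8 alone had a mean of 300 FPKM (239.79 to 345.23), so it made up most of the sum in the other 16 libraries. Crisp1 ranged from 0 to 158.77 FPKM and Spink8 from 0.37 to 42.56 FPKM. The source of the Cst8 transcripts was not tested. Leaving both libraries out gave 0 of the 10 genes called in every comparison. In RNA from whole tissue, fewer cells of a type cannot be told apart from less RNA per cell.

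At the level of the tissue, 4 of the 10 genes were expressed strongly and the others at moderate to low levels. Dad1 was highest at a mean of 294 FPKM over the 18 libraries, with a range of 258 to 343. Spcs1 followed at 265 FPKM (236 to 292), then Ost4 at 249 FPKM (196 to 409) and Stt3b at 168 FPKM (149.8 to 200.1). These 4 ranked 340, 401, 436 and 695 among 20979 gene symbols ordered by mean level. Spcs2 had a mean of 91.4 FPKM, Rpn1 of 60.3, Stt3a of 33.0, Sec11a of 27.6, Sec11c of 21.9 and Spcs3 of 12.2. The signal peptidase genes thus ranged from 12.2 to 265 FPKM, and the catalytic subunits Sec11a and Sec11c lay near the bottom of that range.

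Among the other oligosaccharyltransferase genes, Tmem258 had a mean of 139 FPKM and Rpn2 of 130 FPKM, Ddost of 51.6, Tusc3 of 50.3, Mlec of 38.5, Krtcap2 of 35.6 and Ostc of 31.1. Magt1, whose product can take the place of TUSC3 beside STT3B, had a mean of 1.59 FPKM and stayed between 1.26 and 1.91 FPKM in the 18 libraries. The lowest value of Tusc3 was 47.2 FPKM, so the ranges of these alternative partners lay far apart in whole testis.

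**Figure D1:**
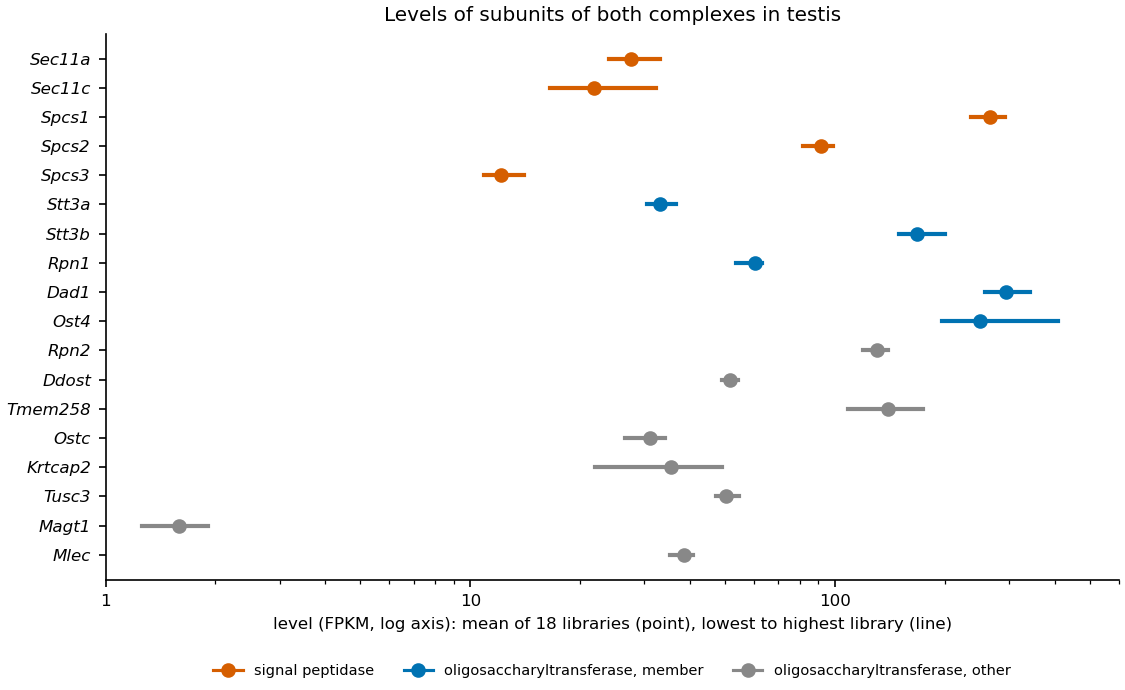
Levels of the 10 genes and of 8 further oligosaccharyltransferase genes, as the mean over 18 libraries (point) and the range from the lowest to the highest library (line), in FPKM on a log axis. Dad1, Spcs1 and Ost4 lie at 196 FPKM or above in every library, Spcs3 lies between 10.9 and 14.1 FPKM, and Magt1 lies below 2 FPKM.

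The alternative catalytic subunits differed in balance between the complexes. Stt3b exceeded Stt3a in all 18 libraries, by 5.18-fold in control, 5.06-fold in AOS, 5.40-fold in HFD, 4.67-fold in HFD-AOS, 4.96-fold in HFD-AOSFMT and 5.22-fold in HFD-conFMT, as geometric means of 3 libraries. On the log2 scale the ratio of Stt3a to Stt3b was -2.43 ± 0.14 (SD, n = 3) in HFD and -2.22 ± 0.053 in HFD-AOS, and between -2.39 and -2.31 in the other 4 groups. The single libraries of HFD spanned -2.54 to -2.28 and those of HFD-AOS -2.28 to -2.17, so the nearest libraries of both groups all but met. Sec11a and Sec11c were nearly balanced. Their ratio was 1.26 in control, 1.25 in AOS, 1.27 in HFD, 1.17 in HFD-AOS, 1.32 in HFD-AOSFMT and 1.40 in HFD-conFMT, with group means of 0.22 to 0.49 on the log2 scale and SDs within a group of 0.13 to 0.36.

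Spread between libraries separated the genes as well. Rpn1 was among the steadiest genes measured: its SD of log2(FPKM + 1) over the 18 libraries was 0.055, at the 4.36 percentile of the 13105 genes tested. Stt3a stood at the 15.7 percentile and Spcs2 at the 20.8 percentile. Sec11c and Ost4 were at the other end, at percentiles of 93.4 and 91.6, and the remaining 5 lay between 35.7 and 54.7. Overlap with other genes limits some of these values. Spcs1 shares sequence on the opposite strand with Glt8d1, Ost4 with Agbl5, Spcs2 with Xrra1 and Spcs3 with Asb5, and Sec11a shares it on the same strand with Nmb. Whether reads were counted by strand is not given in the sources used here, so reads of these partners cannot be told apart from the members' own.

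Spcs1, Stt3b and Dad1 had the smallest p-values of the 10 genes in the comparisons on the diet, and their promoters are shown for the letters that precede each start. In GRCm38, the assembly also named mm10, Spcs1 lies at chr14:30999826-31001672 on the minus strand, Stt3b at chr9:115242581-115310421 on the minus strand and Dad1 at chr14:54235479-54254104 on the minus strand. All 3 are protein-coding. Each window holds 250 bases before and 50 bases after the RefSeq start (GRCm38.p6), read on the gene's own strand, and capitals mark a CCAAT box on either strand. The windows are chr14:31001617-31001916, chr9:115310419-115310718 and chr14:54253880-54254179, in the order printed. The RefSeq starts need not match the gene spans quoted above. Nearly all of the Stt3b window lies before its quoted gene, which ends at 115310421. The Dad1 window overlaps its quoted gene from 54253880 to 54254104.
Spcs1: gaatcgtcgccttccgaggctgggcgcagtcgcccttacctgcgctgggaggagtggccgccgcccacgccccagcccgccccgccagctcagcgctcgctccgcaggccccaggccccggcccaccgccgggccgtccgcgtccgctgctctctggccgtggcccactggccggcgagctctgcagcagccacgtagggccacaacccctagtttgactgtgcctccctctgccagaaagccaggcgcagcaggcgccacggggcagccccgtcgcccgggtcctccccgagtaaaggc
Stt3b: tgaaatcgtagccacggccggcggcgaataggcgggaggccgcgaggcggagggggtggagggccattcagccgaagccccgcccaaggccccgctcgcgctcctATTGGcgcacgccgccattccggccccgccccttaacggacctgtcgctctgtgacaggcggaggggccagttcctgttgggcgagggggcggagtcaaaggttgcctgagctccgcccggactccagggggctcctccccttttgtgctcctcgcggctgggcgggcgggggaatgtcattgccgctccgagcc
Dad1: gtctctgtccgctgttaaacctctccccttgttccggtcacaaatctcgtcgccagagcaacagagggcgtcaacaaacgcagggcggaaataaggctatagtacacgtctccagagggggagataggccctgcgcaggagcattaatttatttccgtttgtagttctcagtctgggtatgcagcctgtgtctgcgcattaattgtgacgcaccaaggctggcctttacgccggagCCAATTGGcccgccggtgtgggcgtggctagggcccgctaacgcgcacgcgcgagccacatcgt
RefSeq promoters were matched for 8 of the 10 genes, and Sec11c and Spcs3 are named only. Searched on both strands, the endoplasmic reticulum stress response element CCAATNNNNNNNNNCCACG, the letters by which ATF6 and the factor NF-Y act on chaperone genes, occurred in 0 of the 8 windows and in 0.12% of 32851 promoters of the same length. The letters TGACGTGG, bound by XBP1 and ATF6, occurred in 0 of the 8 and in 0.68% of all promoters. A CCAAT box alone was present in Stt3b, Dad1, Rpn1, Spcs2 and Stt3a, and in 37.41% of all promoters; Dad1 holds 2 overlapping boxes, 1 on each strand. The windows of Spcs1, Ost4 and Sec11a held none of these letters. A match is a description of the sequence and not a site in use.

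The high-fat diet alone was compared with control first. None of the 10 genes passed the test, limma over 13105 genes, where a call needs a Benjamini-Hochberg adjusted p under 0.05, and 0 had an unadjusted p under 0.05. Over all genes, 0% passed and 6.75% had an unadjusted p under 0.05. Spcs2 came nearest, at 91.6 ± 4.74 FPKM (SD, n = 3) on the diet and 85.1 ± 3.18 in control, a difference of 0.10 on the log2(FPKM + 1) scale with an SE of 0.051 and a limma adjusted p of 0.744. Its libraries read 93.11, 95.35 and 86.26 FPKM on the diet and 88.18, 85.31 and 81.83 FPKM in control, so the groups overlapped. Ost4 was higher in each diet library than in each control library, with 247.25, 240.70 and 243.42 FPKM against 237.46, 196.22 and 196.74 FPKM. Control replicates 2 and 3 lay far below replicate 1, and the adjusted p was 0.783. Rpn1 was lower in each diet library, at 60.52, 60.70 and 58.65 FPKM against 62.11, 62.46 and 62.42 FPKM, with an adjusted p of 0.799. These were 2 of 10 genes whose 3 against 3 values did not overlap, where 12.5% of all genes did not. The median difference of the 10 genes was -0.04 and that of all genes -0.01.

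AOS without the diet is the contrast known when the genes were chosen. Spcs1 was at 246.85, 236.24 and 236.49 FPKM in control and at 276.70, 284.37 and 268.17 FPKM with AOS. Every AOS library lay above every control library, and the group means differed by 0.20 (SE 0.036). Stt3b read 184.64, 181.26 and 181.97 FPKM in control and 162.13, 159.30 and 167.88 FPKM with AOS, a difference of -0.16 (SE 0.049). Spcs3 had means of 13.4 and 11.6 FPKM in control and AOS, Stt3a of 35.3 and 32.2 FPKM, and Rpn1 of 62.3 and 59.3 FPKM, each without overlap. Dad1 was at 273.9 ± 17.5 FPKM in control and 278.6 ± 3.88 with AOS. Of all genes, 0.0229% had an adjusted p under 0.05, 15.8% an unadjusted p under 0.05 and 23.2% no overlap. Among the 10 genes these counts were 0, 4 (Spcs1, Spcs3, Stt3a and Stt3b) and 5. With an adjustment for transcript length and GC content, the difference was 0.16 for Spcs1, -0.10 for Stt3b, -0.10 for Spcs3 and -0.06 for Stt3a. Spcs3 and Stt3a then no longer met the unadjusted threshold of 0.05. The adjusted values come from the contrast known when the genes were chosen, so they are descriptive and support nothing.

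AOS on the diet was compared with the diet alone, in libraries that share none with the contrast above. None of the 10 genes passed the limma test, and 0% of all genes did. Unadjusted p-values under 0.05 were found for 4 of the 10, namely Spcs1, Dad1, Ost4 and Stt3b, against 12.7% of all genes. Of the 10 genes, 3 (Spcs1, Dad1 and Stt3b) had values that did not overlap, against 13.4% of all genes.

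Stt3b, the catalytic subunit that can act after the chain has entered, had the smallest p of the 10. It read 172.65, 200.14 and 170.01 FPKM on the diet and 150.31, 151.88 and 149.80 FPKM with AOS added. The 3 HFD-AOS libraries lay close together and below each of the other 15 libraries of the series, the lowest of which was 157.17 FPKM. The difference from HFD was -0.26 (SE 0.049, 95% interval -0.36 to -0.15), with an unadjusted p of 8.61e-05, rank 6 among the genes tested, and a limma adjusted p of 0.159. That fit pools the spread of all groups. A limma fit of HFD-AOS and HFD alone gave an unadjusted p of 0.00763 and an adjusted p of 0.744. HFD replicate 2 held the highest Stt3b level of all libraries and also the lowest sum of elongating spermatid markers, 39801 FPKM. Without it the difference was -0.18 (adjusted p = 0.428 with limma). The part of that cell class in the value was not tested. Stt3a, the other catalytic subunit, read 30.89, 34.46 and 35.01 FPKM on the diet and 33.38, 31.34 and 32.16 FPKM with AOS, with a difference of -0.05 (SE 0.055) and overlapping groups.

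Dad1, a small subunit shared by both forms of the enzyme, read 289.52, 261.64 and 281.40 FPKM on the diet and 342.54, 320.04 and 316.07 FPKM with AOS. Every HFD-AOS library was higher. The difference was 0.23 (SE 0.057, 95% interval 0.11 to 0.35), with an unadjusted p of 0.000905 and an adjusted p of 0.215 with limma. Without HFD replicate 2, which had the lowest Dad1 level of the group, it was 0.19 (adjusted p = 0.581).

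Ost4, the smallest subunit, read 247.25, 240.70 and 243.42 FPKM on the diet and 409.19, 269.80 and 239.63 FPKM with AOS. A single library set the mean of the HFD-AOS group, which was 306 ± 90.5 FPKM (SD, n = 3), and the groups overlapped. The difference was 0.29 (SE 0.13, adjusted p = 0.383 with limma), and 0.06 without HFD-AOS replicate 1 (unadjusted p = 0.419). Agbl5, which overlaps Ost4 on the opposite strand, was also at its highest in that library, at 326.11 FPKM against 270.43 to 297.62 FPKM in the other 17.

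Spcs1, the accessory subunit of signal peptidase, read 255.87, 252.40 and 244.72 FPKM on the diet and 265.15, 268.83 and 278.56 FPKM with AOS. The groups did not overlap, and the difference was 0.11 (SE 0.036, 95% interval 0.033 to 0.19, adjusted p = 0.265 with limma). Scaling each library to an equal sum left 0.064 of it (unadjusted p = 0.112). A limma fit of HFD-AOS and HFD alone gave an unadjusted p of 0.0789 for Spcs1, no longer under 0.05. The difference was thus smaller than the 0.20 between AOS and control. The difference of these differences was -0.09 (SE 0.051, 95% interval -0.20 to 0.013), which includes 0. The term with the smallest p among the 10 genes was that of Dad1, at 0.21 (SE 0.081, 95% interval 0.035 to 0.38, adjusted p = 0.703 with limma), while that of Sec11c was 0.24 with an SE of 0.28. In that term 0% of all genes passed and 6.86% had an unadjusted p under 0.05, as did 1 of the 10. Since it contains the contrast known beforehand, its values are descriptive.

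**Figure D2:**
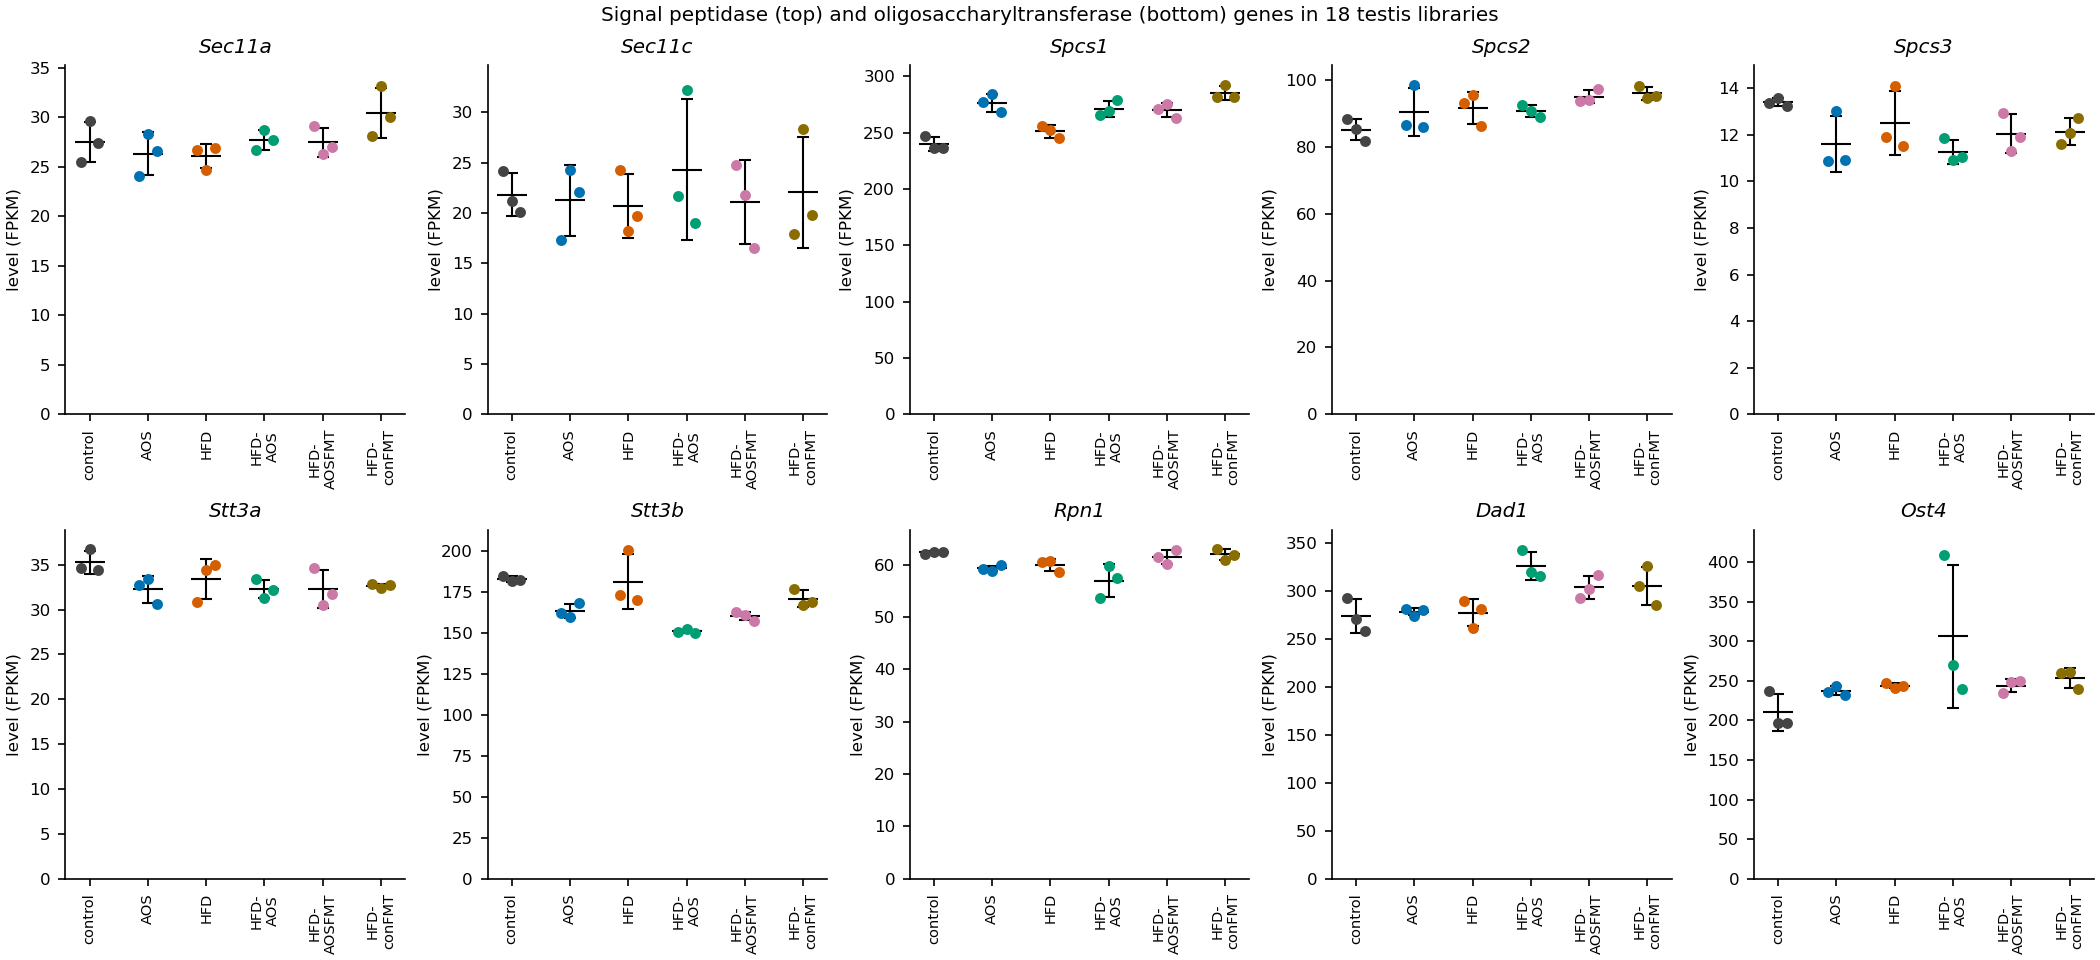
Level in FPKM of each gene in each of the 18 libraries (coloured points), with the mean and SD of each group of 3 (black), signal peptidase genes in the top row and oligosaccharyltransferase genes in the bottom row. Stt3b in HFD-AOS lies between 149.80 and 151.88 FPKM, below every other library, while 1 HFD-AOS library of Ost4 stands at 409 FPKM.

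The remaining genes gave no such separation between HFD-AOS and HFD. Spcs2 was at 90.6 ± 1.71 and 91.6 ± 4.74 FPKM, Sec11a at 27.7 ± 1.00 and 26.1 ± 1.20 FPKM, and Spcs3 at 11.3 ± 0.52 and 12.5 ± 1.37 FPKM. Sec11c was the least settled, at 24.3 ± 7.0 and 20.8 ± 3.18 FPKM, with single HFD-AOS libraries at 21.71, 32.25 and 19.01 FPKM. The 95% interval of its difference, -0.23 to 0.62, shows how little these 3 libraries fix it. Rpn1 was at 57.0 ± 3.10 and 60.0 ± 1.14 FPKM. The median difference of the 10 genes was 0.03, with 5 higher and 5 lower, and that of all genes -0.02, with 43.9% higher.

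FMT on the diet was compared with the diet alone for each label. With FMT labelled AOS, none of the 10 genes passed the limma test, where 0.0229% of all genes did. Spcs1, Dad1 and Stt3b again made up those with an unadjusted p under 0.05 and those without overlap, 3 of 10 each, against 9.82% and 17.2% of all genes. This comparison shares its HFD libraries with the one above, so the recurrence is not independent. Stt3b read 162.38, 160.56 and 157.17 FPKM with this FMT, and the difference from HFD was -0.17 (SE 0.049, adjusted p = 0.357). Without HFD replicate 2 it was -0.10 (adjusted p = 0.779). Dad1 read 292.70, 301.65 and 317.13 FPKM, a difference of 0.13 (SE 0.057, adjusted p = 0.471), and 0.089 without that same library. Spcs1 read 270.64, 275.29 and 262.99 FPKM, all above the 3 HFD libraries, with a difference of 0.10 (SE 0.036, adjusted p = 0.391). The other 7 genes gave differences from -0.05 to 0.07.

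With FMT labelled control, Spcs1 reached its highest level of the 6 groups, at 281.45, 291.99 and 281.40 FPKM. All 3 lay above each HFD library, and the difference was 0.18 (SE 0.036, 95% interval 0.11 to 0.26). Its unadjusted p of 0.000117 had rank 12 of the genes tested, and its limma adjusted p was 0.104. Sec11a, a catalytic subunit, read 28.11, 33.10 and 30.03 FPKM against 26.67, 24.71 and 26.88 FPKM in HFD, without overlap and with a difference of 0.21 (SE 0.071, adjusted p = 0.273). Dad1 read 304.83, 325.80 and 285.96 FPKM, a difference of 0.14 (SE 0.057, adjusted p = 0.362), with the lowest value inside the HFD range. Rpn1 was at 61.9 ± 1.11 against 60.0 ± 1.14 FPKM, without overlap and with an unadjusted p of 0.243. HFD-conFMT replicate 2, the library with epididymal transcripts, had the highest level of Spcs1, Sec11a and Dad1 in its group. Without it and control replicate 3 the differences were 0.16 for Spcs1 (adjusted p = 0.355), 0.15 for Sec11a (adjusted p = 0.590) and 0.090 for Dad1 (adjusted p = 0.663). Of the 10 genes 0 passed the test and 3 each had an unadjusted p under 0.05 or no overlap, while 0%, 12.3% and 20.2% of all genes did.

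The FMT labels were then compared with each other. None of the 10 genes passed the limma test, where 0.00763% of all genes did, and the lowest adjusted p was 1.00. Spcs1 was at 269.6 ± 6.21 FPKM with FMT labelled AOS and at 284.9 ± 6.10 FPKM with FMT labelled control, without overlap, and it was the 1 gene of 10 with an unadjusted p under 0.05 (3.12% of all genes). Its difference was -0.08 (SE 0.036). Stt3b was at 160.0 ± 2.64 and 170.7 ± 5.02 FPKM, also without overlap, as were 10.1% of all genes. All 10 genes had the lower mean with FMT labelled AOS, where 47.1% of all genes had the higher one, but the median difference was -0.04. With each library scaled to an equal sum, 3 of the 10 had the higher mean, and with quantile normalization 1 did. Leaving out any single library of the compared groups gave 1 to 3 of the 10 with the higher mean.

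**Figure D3:**
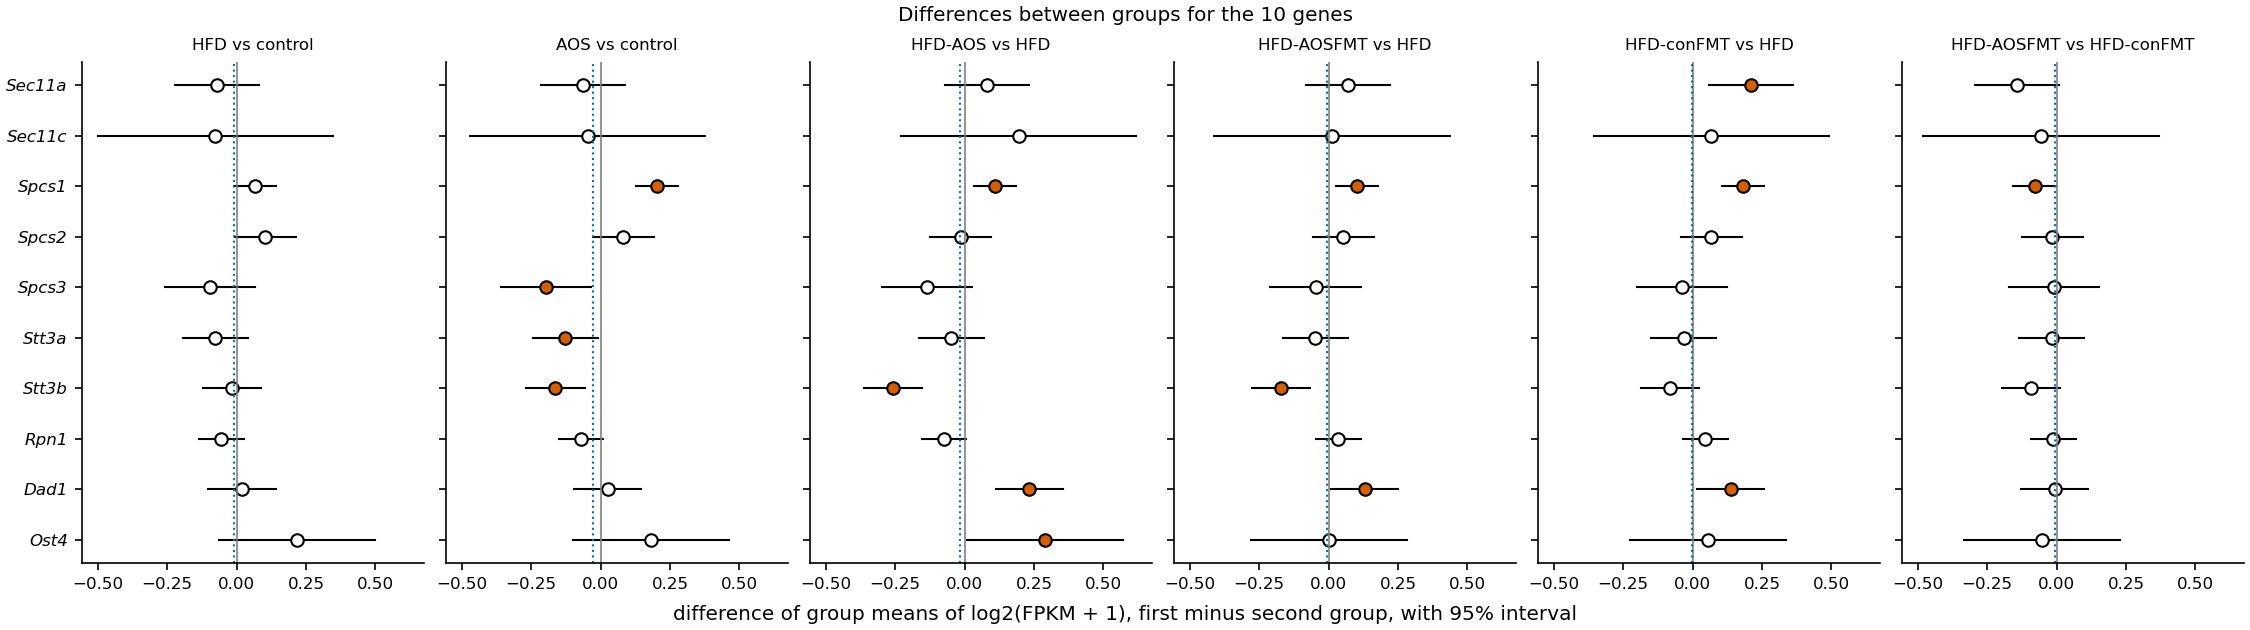
Difference of group means of log2(FPKM + 1) for the 10 genes in 6 comparisons, with 95% limma intervals (lines). Filled points have an unadjusted p under 0.05, none passes after adjustment, and the dotted line is the median of all 13105 genes tested. Spcs1 is filled in 5 of the 6 panels and Stt3b in 3. These include AOS against control, the contrast known when the genes were chosen. The others share libraries, so the panels are not independent.

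Across the 6 groups, Spcs1 was lowest in control at 239.9 ± 6.05 FPKM, followed by HFD at 251.0 ± 5.71, HFD-AOSFMT at 269.6 ± 6.21, HFD-AOS at 270.8 ± 6.93, AOS at 276.4 ± 8.10 and HFD-conFMT at 284.9 ± 6.10 FPKM. Neighbours in this order overlapped except HFD and HFD-AOSFMT. Stt3b ran from 150.7 ± 1.08 FPKM in HFD-AOS through 160.0 ± 2.64 in HFD-AOSFMT, 163.1 ± 4.37 in AOS and 170.7 ± 5.02 in HFD-conFMT to 180.9 ± 16.7 in HFD and 182.6 ± 1.78 in control. Of its neighbours, HFD-AOS did not overlap with HFD-AOSFMT. Dad1 was lowest in control and highest in HFD-AOS, at 326.2 ± 14.3 FPKM. Likeness was measured as the root mean square difference of log2(FPKM + 1) over the 18 libraries, each gene centred on its own mean. The genes nearest to Spcs1 were Carhsp1 at 0.043, Dynll1 at 0.049 and Rpl32, Tsta3 and 1810043G02Rik at 0.051 each, where the root mean square of Spcs1 itself was 0.089. The nearest of the 10 to Spcs1 was Spcs2 at 0.073, and to Stt3b it was Spcs3 at 0.086.

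Transcript length moved with these differences. Lengths here are medians over annotated transcripts. That of Dad1 falls between transcripts, and which transcript is expressed was not tested. The 10 genes fall into 5 with a median transcript under 1000 bases (Sec11a, Sec11c, Spcs1, Spcs2 and Ost4), Dad1 at 2184.5 bases, and 4 over 3000 bases (Spcs3, Stt3a, Stt3b and Rpn1). Between HFD-AOS and HFD, 4 of the 5 short ones were higher and all 4 long ones lower, and over all genes tested the median was 0.05 for 1442 short transcripts and -0.04 for 4847 long ones. Between HFD-conFMT and HFD the 5 short ones were all higher and 3 of the 4 long ones lower, with all-gene medians of 0.09 and -0.04. Between AOS and control, 3 of 5 were higher and 4 of 4 lower, with medians of 0.07 and -0.06. Adjusting each library for length and GC content left Stt3b at -0.21, Dad1 at 0.25 and Spcs1 at 0.086 between HFD-AOS and HFD. It left Spcs1 at 0.12 and Sec11a at 0.15 between HFD-conFMT and HFD, and at 0.053 for Spcs1 (unadjusted p = 0.119) and -0.13 for Stt3b between HFD-AOSFMT and HFD. The part of length in the remaining values was not tested.

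**Figure D4:**
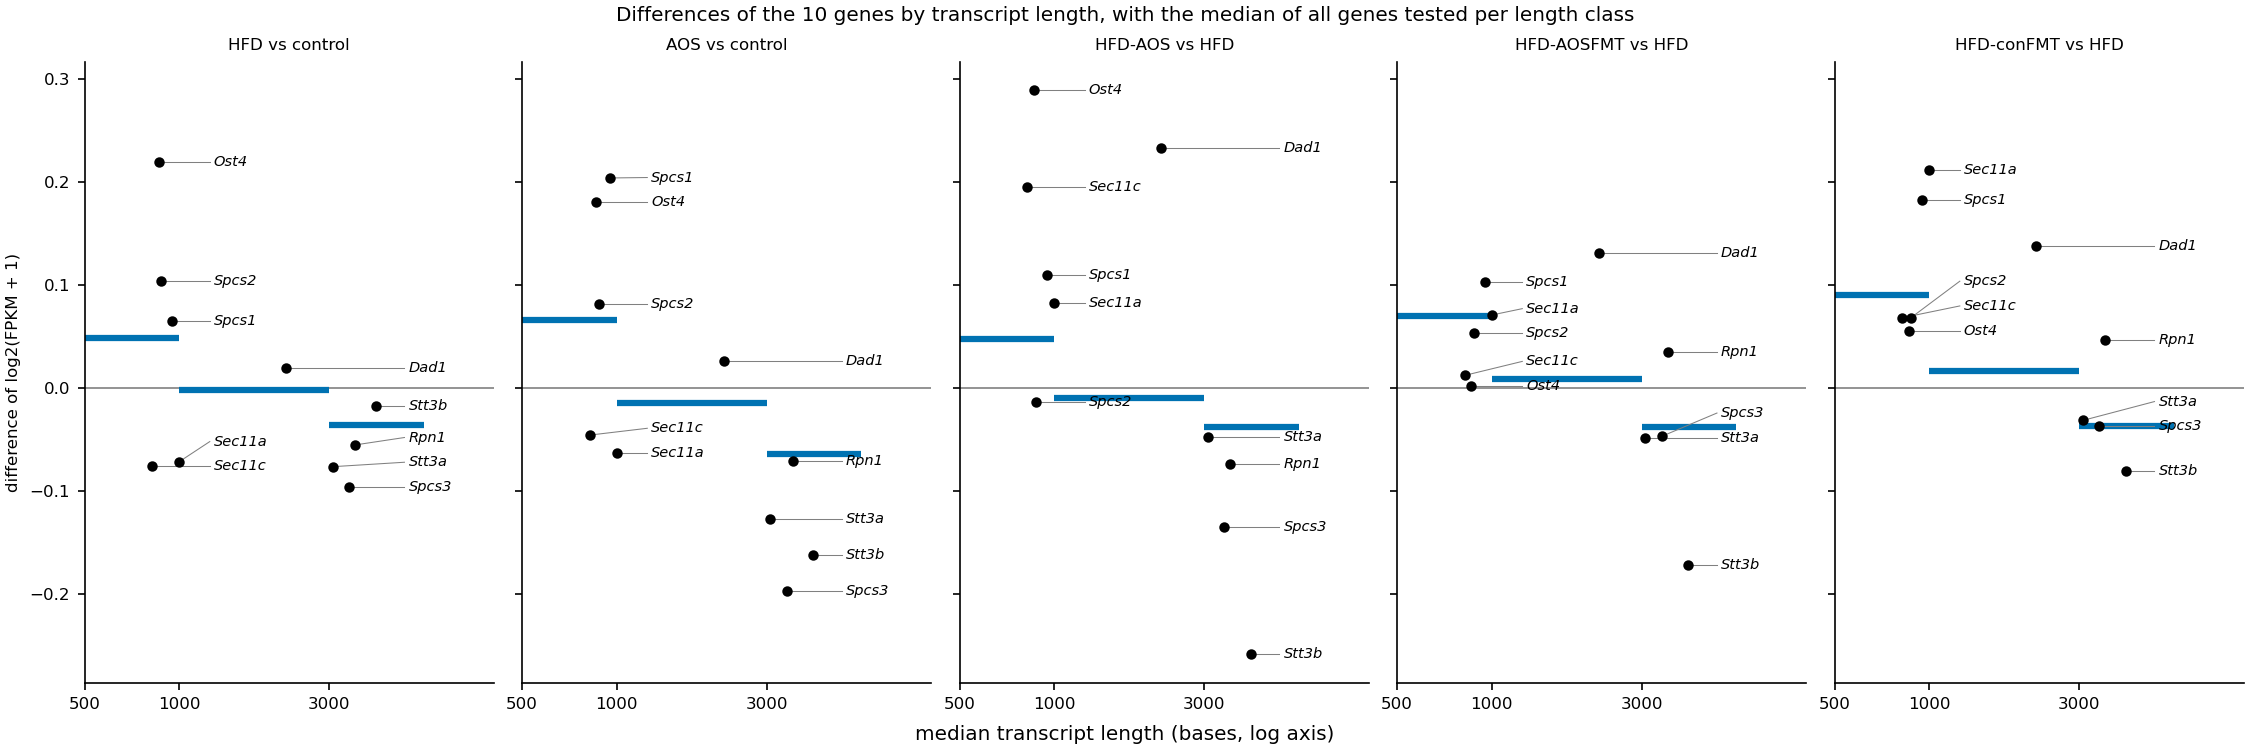
Difference of log2(FPKM + 1) of the 10 genes (black points) against median transcript length in bases on a log axis, in 5 comparisons, with the median of all genes tested in each of 3 length classes (blue bars, outer classes drawn without their true ends). The median of short transcripts lies above 0 and that of long ones below it in each panel. Between HFD-AOS and HFD, Stt3b stands at -0.26 against a class median of -0.04, and Dad1 at 0.23 against -0.01. Dad1 is placed by a median over annotated transcripts that falls between them, and the median of the short class is 0.05.

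Marker genes of other cell classes are given beside these values. Elongating spermatid markers summed to 42518 to 48450 FPKM in control, 53413 to 55055 in AOS, 39801 to 52685 in HFD, 52028 to 59687 in HFD-AOS, 50475 to 52899 in HFD-AOSFMT and 53633 to 57986 in HFD-conFMT. Of the 6 markers, 5 were higher in HFD-AOS than in HFD and 4 had an unadjusted p under 0.05, with a median difference of 0.14, where 43.9% of all genes were higher and 12.7% had such a p. Spermatocyte markers were lower for 5 of 6 there, with a median of -0.09. Leydig cell markers were lower for 4 of 6, and their sum reached 4897 FPKM in HFD-AOS replicate 1 against 2805 and 2808 FPKM in the other 2 libraries of that group. Between HFD-conFMT and HFD, elongating spermatid markers were higher for 6 of 6 (median 0.16) and spermatocyte markers lower for 6 of 6 (median -0.10, lowest adjusted p = 0.104 with limma), where 49.2% of all genes were higher. Between HFD-AOSFMT and HFD the same markers were higher for 6 of 6 (median 0.08) and lower for 5 of 6 (median -0.05), where 47.3% of all genes were higher. Round spermatid markers were lower for 5 of 6 in both FMT comparisons with HFD. Their medians were -0.05 with FMT labelled AOS and -0.04 with FMT labelled control. Macrophage markers were higher for 5 of 6 in HFD-AOS, HFD-AOSFMT and HFD-conFMT, each against HFD (medians 0.11, 0.12 and 0.14). Of the 6, respectively 1, 0 and 2 had an unadjusted p under 0.05, where 12.7%, 9.82% and 12.3% of all genes did. Macrophage markers were lower for 5 of 6 in HFD against control (median -0.15), where 45.2% of all genes were higher. In AOS against control they were lower for 6 of 6 (median -0.13), where 40.2% of all genes were higher. In both of these, 0 had an unadjusted p under 0.05. Between AOS and control, elongating spermatid markers were higher for 6 of 6 (median 0.25), spermatocyte markers lower for 5 of 6 (median -0.12) and Leydig cell markers lower for 6 of 6 (median -0.38), where 40.2% of all genes were higher. Against control, HFD gave higher means for 6 of 6 round spermatid markers (median 0.10), and 4 had an unadjusted p under 0.05. Elongating spermatid markers were also higher for 6 of 6 there (median 0.10), and 1 had such a p. Of all genes, 45.2% were higher in that comparison and 6.75% had such a p. The part of cell makeup in the values of the 10 genes was not tested.

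The genes that act before, beside and after the 2 complexes were counted from lists written from general knowledge. None passed the limma test in any of the 7 comparisons, in either direction, so only unadjusted counts and values are given. Of the 8 other oligosaccharyltransferase genes, 1 had an unadjusted p under 0.05 between HFD-AOS and HFD, near the 12.7% of all genes. This was Krtcap2, a subunit of the STT3A form, at 42.5 ± 6.03 against 30.8 ± 7.73 FPKM (adjusted p = 0.291 with limma). Between HFD-conFMT and HFD all 8 had the higher mean with FMT and 3 had an unadjusted p under 0.05, where 49.2% and 12.3% of all genes did. Of transcripts under 1000 bases 73.6% had the higher mean there, and of those over 3000 bases 33.1%. The part of transcript length in the counts of any list was not tested. Tmem258, a subunit of both forms, was at 154.3 ± 3.87 against 124.2 ± 13.7 FPKM (adjusted p = 0.301), and Tusc3, the partner of STT3B, at 53.1 ± 1.49 against 49.4 ± 1.08 FPKM (adjusted p = 0.313). Between HFD-AOSFMT and HFD, 2 of the 8 had an unadjusted p under 0.05, as did 9.82% of all genes. These were Tmem258 at 150.5 ± 20.4 FPKM and Tusc3 at 52.4 ± 0.61 FPKM, against the same HFD libraries.

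Of 13 translocon genes, Sec61g, a small subunit of the channel, had the smallest p in 4 comparisons. It was at 21.9 ± 1.43 FPKM in control, 27.1 ± 2.18 in AOS, 25.7 ± 2.59 in HFD, 30.9 ± 1.06 in HFD-AOSFMT and 30.8 ± 1.81 in HFD-conFMT. The lowest of its adjusted p-values on the diet was 0.191, between HFD-conFMT and HFD. Ssr3, a subunit of the translocon-associated protein complex, was at 17.2 ± 0.24 FPKM in control and 15.4 ± 1.21 in HFD (adjusted p = 0.675). Hspa5, the chaperone BiP, was at 169.3 ± 19.5 FPKM in HFD-AOS and 188.0 ± 7.38 in HFD (adjusted p = 0.360). Of the signal recognition particle and its receptor, which bring the chain to the channel, 10 of 11 listed genes were tested. Srp9 was at 51.1 ± 3.10 FPKM in HFD-AOS and 51.0 ± 1.00 in HFD-AOSFMT against 45.9 ± 2.94 in HFD, and Srp14 at 254.1 ± 6.42 in HFD-conFMT against 231.8 ± 16.7 FPKM in HFD, with adjusted p-values of 0.360, 0.471 and 0.270.

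Glycan assembly and glycan checkpoints flank oligosaccharyltransferase. Of 23 genes that build or recycle the dolichol-linked glycan, 21 were tested, and 0 had an unadjusted p under 0.05 in the comparisons of HFD with control and of HFD-AOS, HFD-AOSFMT or HFD-conFMT with HFD. Between the FMT labels 3 of the 21 did (3.12% of all genes), among them Dpm1, which makes the mannose donor, at 25.8 ± 1.22 with FMT labelled AOS and 28.7 ± 0.27 FPKM with FMT labelled control, with an adjusted p of 1.00. Of 14 genes of glycan trimming and lectin-assisted folding, 3 had an unadjusted p under 0.05 between HFD-AOS and HFD, each with the lower mean in HFD-AOS, where 12.7% of all genes had such a p and 43.9% the higher mean. Man1b1, a mannosidase, was at 19.2 ± 1.34 against 21.7 ± 1.12 FPKM (adjusted p = 0.240), and Calr3, a testis form of calreticulin, at 89.9 ± 4.43 against 97.55 ± 5.62 FPKM (adjusted p = 0.358). Canx, the lectin chaperone calnexin, was at 37.0 ± 2.53 FPKM in HFD and 41.7 ± 2.07 in control (adjusted p = 0.670).

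Targets and sensors of the unfolded protein response, 12 genes in all, gave no common direction on the diet, with 6 higher and 6 lower both between HFD and control and between HFD-AOS and HFD. Hsp90b1, an endoplasmic reticulum chaperone, was at 225.3 ± 16.4 FPKM in HFD-AOS and 249.8 ± 9.35 in HFD, without overlap (adjusted p = 0.276 with limma). Sdf2l1, part of a chaperone complex, was at 32.0 ± 2.00 FPKM in HFD-AOSFMT, 31.8 ± 0.89 in HFD-conFMT and 27.8 ± 1.43 in HFD, with adjusted p-values of 0.457 and 0.380. Manf was at 70.1 ± 1.40 in HFD-conFMT and 65.7 ± 0.69 FPKM in HFD (adjusted p = 0.329).

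Between AOS and control, 67.8% of transcripts under 1000 bases and 25.1% of those over 3000 bases had the higher mean in AOS. The part of length in the counts below was not tested. In that comparison 15.8% of all genes had an unadjusted p under 0.05, and the same lists gave the following counts. Of glycan trimming and folding genes 6 of 14 did, all with the lower mean in AOS, among them Edem3 at 3.34 ± 0.11 against 3.94 ± 0.36 FPKM and Canx at 36.8 ± 2.70 against 41.7 ± 2.07 FPKM, each with a limma adjusted p of 0.178. Of other oligosaccharyltransferase genes 1 of 8 did, the lectin gene Mlec, at 36.6 ± 1.09 against 39.9 ± 0.50 FPKM (adjusted p = 0.203). Translocon genes gave 2 higher and 1 lower of 13, signal recognition genes 2 higher and 1 lower of 10, dolichol genes 1 lower of 21 and unfolded protein response genes 1 higher and 2 lower of 12.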

How the data were processed

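Per the labels' protocols, RNA of frozen testis was purified by Trizol and column before Illumina library preparation. Per the submitters' processing notes, reads were aligned with Bowtie 0.12.2 to mm10. The counter, annotation, strand setting and read depth were not given in the sources used here, which hold no counts either. From the authors comes a single deposited table, whose unit is not stated and was read here from its values as FPKM, since sums differ between libraries and lie under those of CPM or TPM. No counting interval is therefore given.

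The members and all lists were chosen with earlier results of these data known. Rows of 3 repeated symbols (6 rows) were left out. Values were taken as log2(FPKM + 1), which understates changes of low genes. A mean of 1 FPKM or more was required, and 13105 genes, all 10 members among them, entered 1 limma 3.58.1 fit in R 4.3.3 over the 18 libraries, fitted as 6 group means with limma's mean-variance trend. Tests were two-sided, with Benjamini-Hochberg adjustment over all genes tested and a threshold of 0.05. The code was tested on simulated data. Differences are first minus second group. SDs are of FPKM over 3 libraries and SEs and 95% intervals come from limma.

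All 10 members were named. Of each other list, up to 2 genes of smallest p per comparison were eligible among those with an unadjusted p under 0.05. Srpra was not used here. Transcript length and GC content came from the GENCODE annotation of GRCm38 and cover 98.1% of the genes tested. Alternatives were another pseudocount (0.1), no filter or a mean of at least 5 FPKM, quantile normalization, equal library sums, median-centred libraries, length and GC adjustment, the compared groups alone, array weights, the replicate number as a block, each library left out, and control 3 and HFD-conFMT 2 both left out. Plots: Python 3.11.15 and matplotlib 3.10.9.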

Additional observations from a re-analysis of the deposited data

How the results depend on the processing

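The count of 0 genes called among the 10 held under every alternative run in 6 of the 7 comparisons, and no difference with an unadjusted p under 0.05 changed direction. The exception was AOS against control, the contrast known when the genes were chosen, so its calls are descriptive and support nothing. Spcs1 alone was called there, with limma, when libraries were centred on their medians (1 of 10, adjusted p = 0.0396) or weighted (1 of 10, adjusted p = 0.0261). Leaving out single libraries gave 0 to 1 there, with 1 without HFD replicate 2 (adjusted p = 0.0470), HFD-AOS replicate 1 (0.0367) or HFD-AOS replicate 3 (0.0462), none of which belongs to the groups compared. Over all alternatives, the adjusted p of Spcs1 there ran from 0.0261 to 0.277 (without AOS replicate 1), and 0.0752 was the value reported from the fit of all libraries. Replicate numbers did not pair the libraries: deviations of same-numbered libraries correlated between -0.10 and 0.07. The replicate block gave 0 of 10 called in each of the 7 comparisons.

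Calls over all genes were few and unstable. Between AOS and control 3 genes were called, but 240 with array weights, 44 without HFD-AOS replicate 1, 15 without HFD replicate 2, 9 without HFD-AOS replicate 3 and 0 with quantile normalization, equal sums or the length and GC adjustment. Between HFD-AOSFMT and HFD 3 were called, 26 without the filter, 7 with array weights and 1 with the replicate block. Between HFD-conFMT and HFD 0 were called, 17 without HFD-AOS replicate 1, 9 with array weights and 3 without the filter. Between HFD-AOS and HFD 0 were called, 4 without HFD-AOS replicate 3 and 2 without the filter. Between the FMT labels 1 was called, and 16 without the filter. The causes were not tested. Precision is limited by 3 libraries a group, and no counts show what part of the spread is counting error.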
